A study of Mus musculus with 5 samples.

Results

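Receptors for extracellular nucleotides, adenosine and catecholamines that act on surfactant secretion were followed in cells sorted from newborn mouse lung. The set was defined by name as P2ry2, P2rx4, P2rx7, Adora1, Adora2a, Adora2b, Adora3 and Adrb1, and every probe set that the platform annotation assigns to 1 of these symbols alone was taken. This gave 10 probe sets of 4 of the 8 genes, out of 34958 probe sets of 18194 genes with a single symbol. P2rx4 had 4 of them, P2rx7 had 3, Adora3 had 2 and P2ry2 had 1. Adora1, Adora2a, Adora2b and Adrb1 were not analysed here. The measured members are therefore purinergic receptors alone. P2rx4 lay above background by all 4 of its probe sets and P2ry2 by its 1 probe set, while P2rx7 and Adora3 were above background by some of their probe sets and not by others.

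All samples formed 1 group of 5 biological replicates with 1 array each. The cells were GFP-positive cells taken by flow cytometry from the lungs of pups of the SPC-GFP line at postnatal day 2. The pups came from SPC-GFP mice mated with the out-bred ICR strain. SPC stands for surfactant protein C, encoded by Sftpc and made by alveolar type 2 cells, the surfactant-secreting cells of the air sacs. All 5 samples carry the reporter, and no reporter-negative cells, other age or treatment was available for comparison. The sources used here do not say whether a replicate was 1 pup or several. Titles call the cells alveolar type 2, while the design text calls them ciliated.

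Alveolar type 2 cells store surfactant in lamellar bodies and release it by exocytosis. Extracellular ATP is a strong trigger of that release: the G protein-coupled receptor P2Y2 raises calcium through Gq and phospholipase C, and the ATP-gated channel P2X4 sits in lamellar body membranes, where it lets calcium enter once the body has fused with the cell surface. P2X7 is a second ATP-gated channel, known in lung from alveolar type 1 cells and macrophages. Ectonucleotidases turn ATP into adenosine, which acts on G protein-coupled receptors that raise cAMP (those of Adora2a and Adora2b) or lower it (those of Adora1 and Adora3).

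The 4 measured genes lie at 3 loci, and their promoter sequences are shown because P2rx7 and P2rx4 are direct neighbours and because RefSeq gives P2rx7 more than 1 start while its probe sets disagreed in signal. Each line holds the 250 bases before a RefSeq transcription start (GRCm38.p6), 5′ to 3′, with GC boxes (GGGCGG, read on both strands) in capitals. P2ry2 has a second start close by, whose overlapping window is not printed. The P2ry2 sequence is chr7:101012054-101012303, minus strand, the P2rx4 sequence chr5:122707294-122707543, plus strand, the P2rx7 sequences chr5:122643677-122643926, plus strand and chr5:122650133-122650382, plus strand, and the Adora3 sequence chr3:105904171-105904420, plus strand.
P2ry2 first start: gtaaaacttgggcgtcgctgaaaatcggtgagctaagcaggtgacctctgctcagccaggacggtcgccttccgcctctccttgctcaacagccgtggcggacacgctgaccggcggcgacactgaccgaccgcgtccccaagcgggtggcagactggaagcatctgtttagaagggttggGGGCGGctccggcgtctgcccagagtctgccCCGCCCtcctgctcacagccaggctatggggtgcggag
P2rx4: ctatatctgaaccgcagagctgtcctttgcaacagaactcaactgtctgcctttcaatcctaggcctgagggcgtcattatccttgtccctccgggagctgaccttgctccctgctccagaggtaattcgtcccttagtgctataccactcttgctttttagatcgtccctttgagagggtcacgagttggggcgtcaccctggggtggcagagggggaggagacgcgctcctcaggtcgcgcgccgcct
P2rx7 first start: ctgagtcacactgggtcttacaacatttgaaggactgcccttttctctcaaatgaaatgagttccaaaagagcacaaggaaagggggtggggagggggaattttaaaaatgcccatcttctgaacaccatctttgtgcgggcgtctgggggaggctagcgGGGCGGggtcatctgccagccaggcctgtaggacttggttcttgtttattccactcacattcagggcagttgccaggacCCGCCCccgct
P2rx7 second start: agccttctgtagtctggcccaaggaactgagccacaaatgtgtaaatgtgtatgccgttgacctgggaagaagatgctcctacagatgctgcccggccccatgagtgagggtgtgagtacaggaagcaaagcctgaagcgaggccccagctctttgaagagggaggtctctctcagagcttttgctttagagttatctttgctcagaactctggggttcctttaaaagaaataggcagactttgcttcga
Adora3: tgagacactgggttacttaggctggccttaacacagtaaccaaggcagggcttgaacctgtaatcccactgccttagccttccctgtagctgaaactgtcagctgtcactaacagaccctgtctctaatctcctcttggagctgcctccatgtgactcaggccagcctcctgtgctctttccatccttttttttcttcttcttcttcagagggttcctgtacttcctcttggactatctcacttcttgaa

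GC boxes began 69 and 38 bases before the first P2ry2 start and 90 and 11 bases before the first P2rx7 start. The window of the second P2ry2 start, chr7:101011999-101012248, minus strand, held 4 GC boxes, at 124, 93, 53 and 43 bases before it, some of them shared with the first. All 6 windows were searched on both strands for a CCAAT box, by the letters CCAAT. They were also searched for a TATA box by the letters TATAAA. The third search was for an NKX2 core, by the letters CAAGTG. None of these 3 was found in the 6 windows, and no matches overlapped. Among 32851 mouse promoter windows of the same length, 32.7% held a GC box, 33.8% a CCAAT box, 12.4% a TATA box and 11.6% an NKX2 core. CpG dinucleotides numbered 21 and 26 before the P2ry2 starts, 13 before P2rx4, 6 and 4 before the P2rx7 starts and 0 before Adora3, against a median of 6 over all windows. The windows thus span CpG-rich to CpG-free sequence. The starts of P2rx7 and P2rx4 lie 63.6 kb apart on the same strand, with no other protein-coding gene between them in the RefSeq table. In that table the span of P2rx4 overlaps Camkk2, a kinase gene on the opposite strand, and the span of Adora3 lies within that of Tmigd3. Signal from Tmigd3 cannot be told apart from that of Adora3 where probes fall in shared sequence. For Camkk2 and P2rx4 this would hold only where a probe set reads the Camkk2 strand. The strand and position of the probes were not given.

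Signals are the deposited log2 values, and probe sets were not ranked against each other because their probes hybridise with different strength. Each was instead set against its array's background, the 95th percentile of 87 probe sets of 78 chemosensory receptor genes, which lay between 5.32 and 5.60. Values minus background were tested with limma's one-sided moderated test across 34871 probe sets, with Benjamini-Hochberg adjustment. By this test 8 of the 10 receptor probe sets lay above background, against 72.5% of all probe sets. Each of the 4 measured genes had at least 1 such probe set, against 75.7% of all genes, so both counts are close to what any gene gives. The median over the 10 was 2.27 log2 units above background, against 2.49 over all probe sets. The labels call the samples biological replicates without naming animals, so a p-value here covers only how far these 5 arrays differed. The number of arrays limits the precision.

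**Figure D1:**
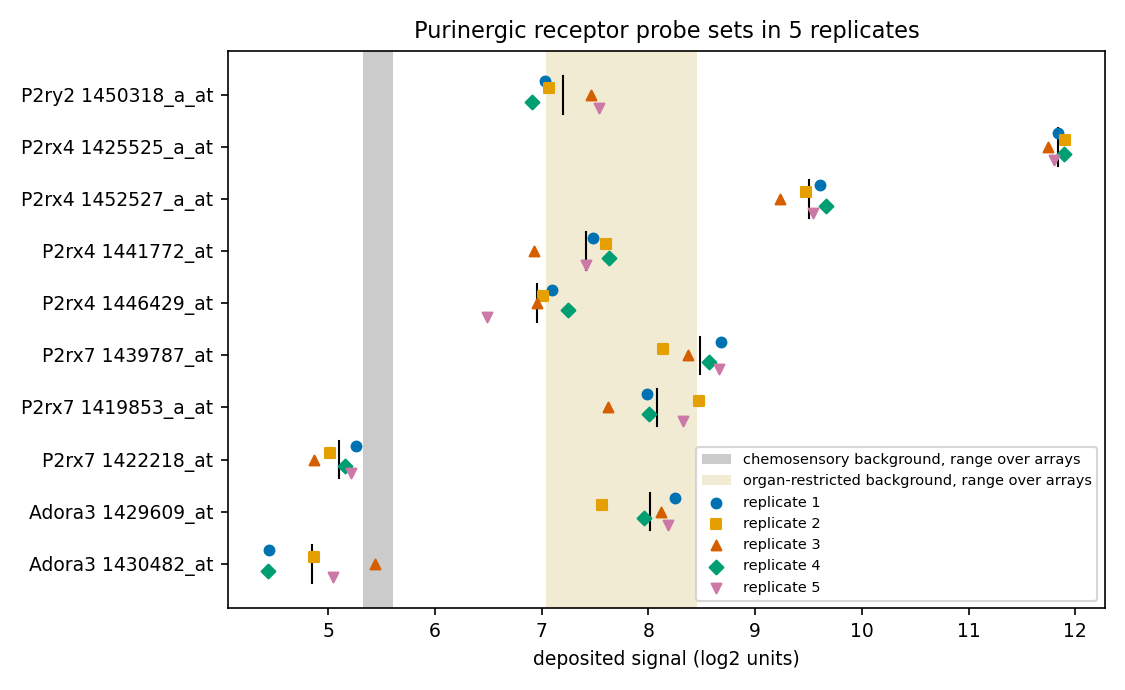
Deposited log2 signal (horizontal axis) of the 10 receptor probe sets in the 5 replicates (symbols), with the mean as a black line and the range of each background over the arrays as a band. P2rx4 probe set 1425525_a_at sits between 11.74 and 11.90 in all replicates, while P2rx7 1422218_at and Adora3 1430482_at sit at or under the chemosensory background.

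P2ry2, the Gq-coupled receptor for ATP and UTP, was measured by probe set 1450318_a_at. It read 7.03, 7.07, 7.46, 6.91 and 7.53 in replicates 1 to 5, with a mean of 7.20 ± 0.28 (SD, n = 5). Replicates 3 and 5 were the high ones, and all 5 arrays were above background. The mean exceeded background by 1.76 log2 units (95% confidence interval 1.47 to 2.05, limma adjusted p = 4.34e-09), or 3.39-fold. Against organ-restricted genes as background, a set of 62 probe sets of genes such as pituitary and testis genes whose 95th percentile lay at 7.04 to 8.46, the same signal was 0.30 log2 units lower than background (−0.30, SE 0.34) and not called. That background was passed by 3 of the 10 receptor probe sets, against 47.8% of all probe sets. P2ry2 signal was therefore above the lower background and within the range of the higher one. The higher one lay at 8.46 and 7.83 in replicates 1 and 4 and at 7.04 to 7.08 in the others. P2ry2 exceeded it in replicates 3 and 5 only. In bulk RNA of a sort, few cells with much of a transcript and many cells with little of it cannot be told apart.

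P2rx4, the lamellar body channel, was read by 4 probe sets, all above background. Probe set 1425525_a_at read 11.84, 11.90, 11.74, 11.89 and 11.80 in replicates 1 to 5, a mean of 11.83 ± 0.066 (SD, n = 5). The replicates spanned 0.16 log2 units, or 1.12-fold, the narrowest range of the 10 probe sets. It exceeded background by 6.39 log2 units (95% confidence interval 6.24 to 6.54, limma adjusted p = 2.35e-19) and the organ-restricted background by 4.34 (SE 0.33). Probe set 1452527_a_at read 9.61, 9.48, 9.23, 9.66 and 9.54, with replicate 3 lowest, and lay 4.06 above background (95% confidence interval 3.86 to 4.26, adjusted p = 1.16e-15) and 2.01 (SE 0.33) above the organ-restricted one. Both probe sets gave the call with either background.

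The calls of the other P2rx4 probe sets depended on the background used. Probe set 1441772_at read 7.48, 7.61, 6.92, 7.63 and 7.41 in replicates 1 to 5, again lowest in replicate 3. It lay 1.97 log2 units above background (95% confidence interval 1.68 to 2.25). Probe set 1446429_at read 7.10, 7.01, 6.96, 7.24 and 6.49, lowest in replicate 5, and lay 1.52 above background (95% confidence interval 1.23 to 1.81). Their limma adjusted p-values were 9.03e-10 and 2.70e-08. Relative to organ-restricted genes they stood at −0.086 and −0.54 (SE 0.34 each) and were not called. All 4 P2rx4 probe sets thus gave the call with chemosensory genes as background, and 2 of the 4 with organ-restricted genes.

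P2rx7, the ATP-gated channel of alveolar type 1 cells and macrophages, gave disagreeing probe sets. Probe set 1439787_at read 8.68, 8.14, 8.37, 8.57 and 8.66 in replicates 1 to 5 and lay 3.04 log2 units above background (95% confidence interval 2.81 to 3.28, limma adjusted p = 3.12e-13). Probe set 1419853_a_at read 7.99, 8.47, 7.62, 8.004 and 8.33 and lay 2.64 above it (95% confidence interval 2.34 to 2.94, adjusted p = 3.85e-11). Replicate 2 was lowest by the first and highest by the second, so the order of the replicates was not shared between them. Probe set 1422218_at read 5.26, 5.02, 4.87, 5.16 and 5.21, below background in all 5 arrays, with a difference of −0.34 (95% confidence interval −0.59 to −0.09, adjusted p = 1). With organ-restricted genes as background, 1439787_at kept the call at 0.99 (SE 0.34), while 1419853_a_at stood at 0.59 (SE 0.34) and was not called. The annotation does not give the transcript or start that each probe set reads, and the promoters printed above hence cannot be assigned to one of them.

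Adora3 encodes an adenosine receptor that couples to Gi and is known in rodents from mast cells. Probe set 1429609_at read 8.25, 7.57, 8.11, 7.96 and 8.18 in replicates 1 to 5, with a mean of 8.01 ± 0.27 (SD, n = 5). Replicate 2 was the low one. It lay 2.57 log2 units above background (95% confidence interval 2.31 to 2.83, limma adjusted p = 1.09e-11), and 0.52 (SE 0.34) above the organ-restricted background, where it was not called. Probe set 1430482_at read 4.44, 4.87, 5.44, 4.44 and 5.04, at or below background in all 5 arrays, with a difference of −0.60 (95% confidence interval −0.92 to −0.27, adjusted p = 1). The Adora3 call rested on 1 of its 2 probe sets. Mast cell and basophil markers were measured beside it: of 8 genes, Cpa3, Kit, Tpsb2, Cma1 and Mcpt8 (5) lay above background, and Ms4a2, Fcer1a and Mcpt4 (3) did not. With organ-restricted genes as background 1 of the 8, Kit, was called. Over all genes 75.7% lay above background, and 57.1% with organ-restricted genes. The summed linear signal of the 8 ran from 921 in replicate 3 to 1556 in replicate 1, and Cpa3, a mast cell protease gene, read 7.46 ± 0.51 (SD, n = 5). Their part in the Adora3 signal was not tested.

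**Figure D2:**
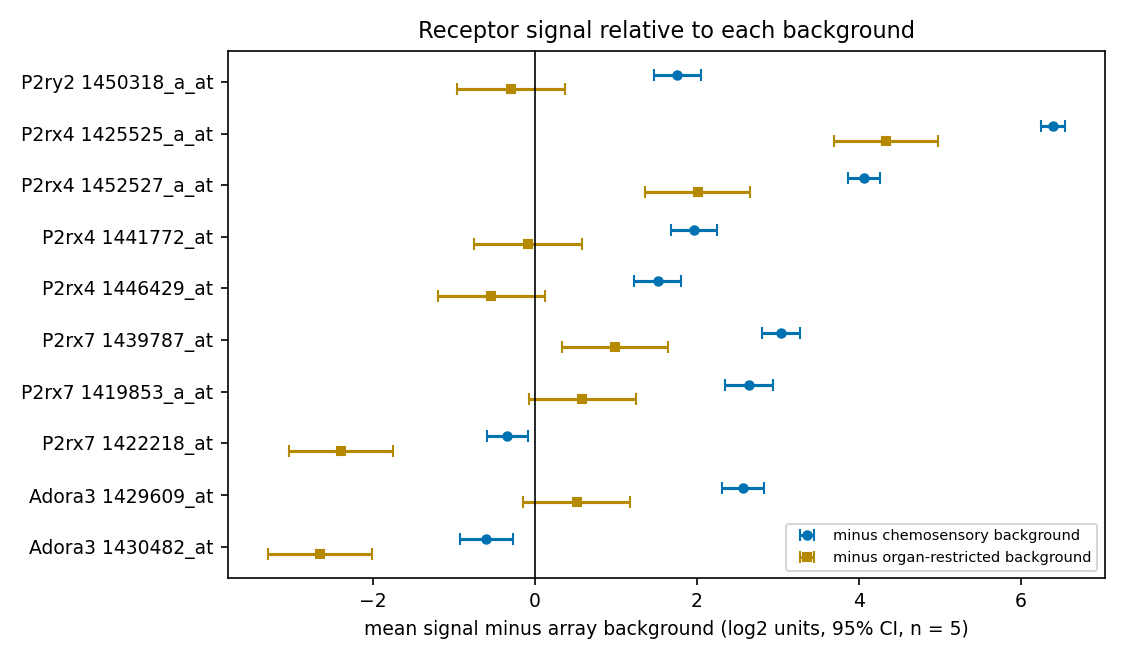
Mean receptor signal minus the array background (horizontal axis, log2 units; points are means over 5 arrays, bars the 95% confidence interval), with chemosensory genes (circles) and organ-restricted genes (squares) as background. With chemosensory genes 8 of the 10 intervals lie above 0, and with organ-restricted genes 3 do.

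The spread between replicates was then compared with that of other probe sets of like signal, by an F test of each variance against the variance limma fitted for that signal. The 10 receptor SDs ran from 0.066 to 0.43, with a median of 0.27 against 0.18 over all probe sets. No receptor probe set (0 of 10) had an unadjusted p under 0.05, and so none passed after adjustment. In simulated data the adjusted test found most probe sets of very strongly raised spread but missed most at the smaller rise tried. The unadjusted test found most at both sizes. Still smaller rises were not simulated, so neither count says much about them. Over the 34871 probe sets limma called 0 (0%) after adjustment, and 1904 (5.46%) had an unadjusted p under 0.05. The smallest receptor p was 0.122, for the Adora3 probe set 1430482_at, which spanned 1.00 log2 units. No receptor probe set above background had a range of 1 log2 unit or more, and genes of like pattern were therefore not named.

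Replicate 3 was lowest in 4 of the 8 receptor probe sets above background, 3 of P2rx4 and 1 of P2rx7, against 25.3% of all probe sets above background. P2ry2 went the other way, at 0.26 log2 units above its own mean there. Macrophage markers, expressed by cells that also carry P2X4 and P2X7, were lowest in replicate 3 by their mean deviation but not by their sum. The mean deviation of their 8 genes, all above background, was −0.08, −0.004, −0.47, 0.15 and 0.40 in replicates 1 to 5, and their summed linear signal ran from 9947 in replicate 1 to 13647 in replicate 5, with 10726 in replicate 3. Of the 8 genes, 6 were lowest in replicate 3, among them Marco, at 8.25 there and 8.91 to 10.05 in the others. Csf1r was not, and read 12.54 in replicate 3, within its range of 11.95 to 12.55. Neutrophil markers had −1.14 in replicate 3 and 0.97 in replicate 4 (6 of 7 genes above background, not Cxcr2), with sums of 6315 to 22407. Fibroblast and smooth muscle markers (8 of 8 above background, sums of 19204 to 34492) and cardiac markers (7 of 8, sums of 1014 to 4005) were lowest in replicate 3 too, at −0.75 and −1.11. So were ciliated (−0.56), mast cell and basophil (−0.48), neural and glial (−0.41) and endothelial markers (−0.16). Replicate 3 also had the largest difference between the 3′ and 5′ control probe sets of Actb, 0.84 against 0.54 to 0.60 in the others. For Gapdh it was largest there too, at 1.67, but close to the 1.60 of replicate 5. The mean of the control probe sets bioB and bioC set replicate 1 apart instead, at 12.57 against 11.63 (replicate 3) to 11.79 (replicate 2) in the others. Alveolar type 1 markers (8 of 8, sums of 83843 to 96303) were lowest in replicate 1, at −0.18. Alveolar type 2 markers were lowest in replicate 5, at −0.07, and lymphocyte markers in replicate 4, at −0.26. The part of these differences in the receptor values was not tested.

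**Figure D3:**
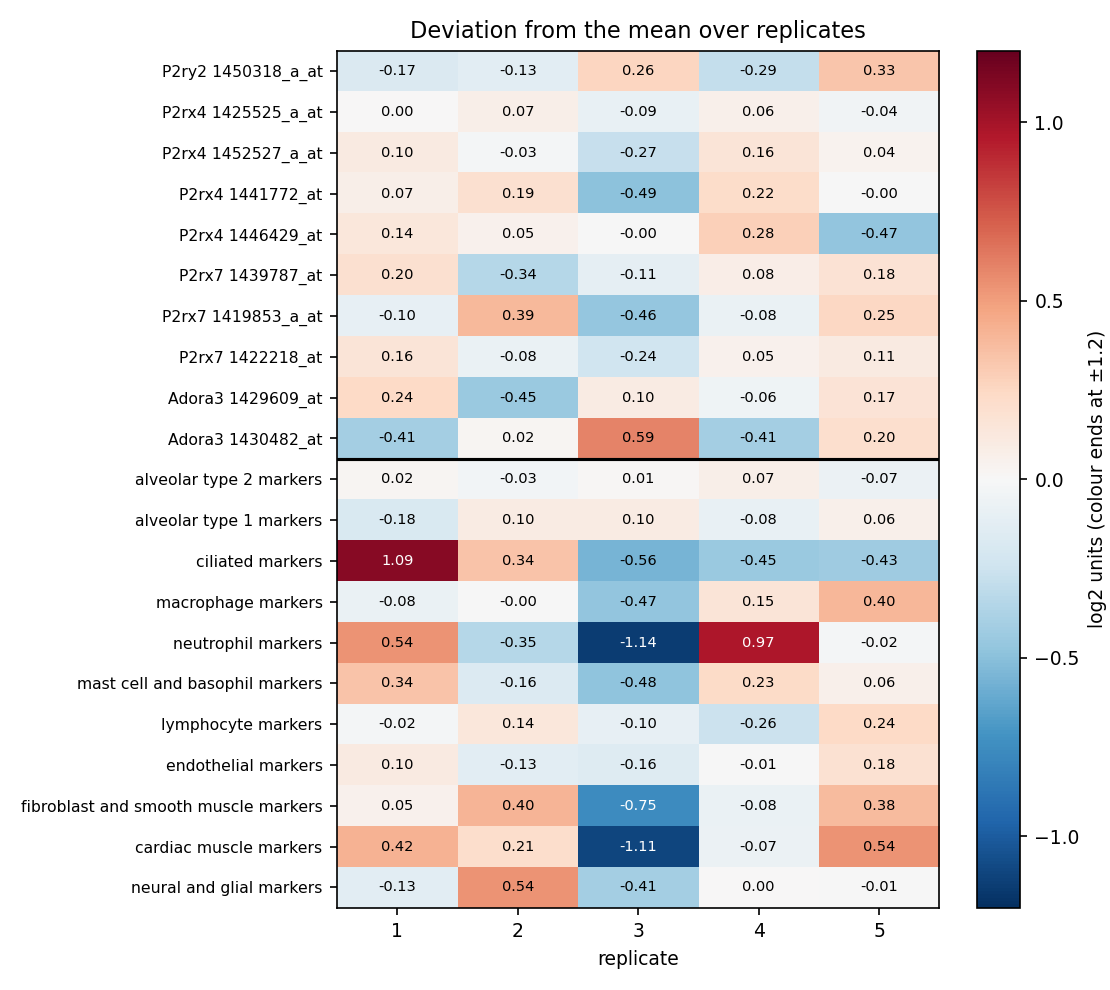
Deviation of each receptor probe set from its own mean (upper 10 rows) and mean deviation of the marker genes of each cell type (lower 11 rows) in replicates 1 to 5, in log2 units. The receptor probe sets above background stay within 0.49 of their means, the widest being P2rx4 1441772_at in replicate 3. The ciliated, neutrophil and cardiac rows hold the widest deviations.

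The sort was checked against cell type markers. All 8 alveolar type 2 markers lay above both backgrounds, with Sftpc at 14.67 ± 0.053 and Sftpb at 14.13 ± 0.077 (SD, n = 5), and their mean deviation stayed between −0.07 and 0.07. All 8 ciliated markers lay above the chemosensory background, 5 of them also above the organ-restricted one, and they were highest in replicate 1 in 8 of 8 genes (1.09). The alveolar type 1 gene Ager, the macrophage gene Csf1r, the endothelial gene Pecam1 and the collagen gene Col1a1 read 14.68, 12.30, 9.82 and 12.96, so markers of other cell types gave signal. Endothelial markers (8 of 8) and lymphocyte markers (6 of 6) lay above background, and 3 of 6 neural and glial markers did, against 75.7% of all genes. With organ-restricted genes 8 of 8, 1 of 6 and 0 of 6 in these lists were called, against 57.1% of all genes.

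Genes that act around these receptors were taken from 13 lists, chosen with earlier results of these data known. Of their 101 genes, 89 had a probe set, and 80 of the 89 lay above background, against 75.7% of all genes. The median of the highest probe sets was 3.72 log2 units above background, against 3.50 over all genes. With organ-restricted genes as background 55 of the 89 were called, against 57.1% of all genes. Genes with more probe sets have more chances of a call: 63.0% of genes with 1 probe set and 94.9% of those with 4 were called.

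Of the genes that release ATP, break it down and take up or break down adenosine, 6 of 6, 8 of 9 and 7 of 9 in the 3 lists were above background, against 75.7% of all genes. With organ-restricted genes 3 of 6, 6 of 9 and 4 of 9 were, against 57.1% of all genes. All 6 release genes were above background, among them Panx1, a pannexin channel gene, at 9.26 ± 0.13, while Panx2 read 6.34 ± 0.27 (SD, n = 5). Slc17a9, the vesicular nucleotide transporter gene, read 7.18 ± 0.23 by its higher probe set. Of 9 ectonucleotidase genes 8 were above background: Entpd1, which strips phosphates from ATP, at 10.04 ± 0.33, Entpd2 at 6.47 ± 0.35, and Nt5e, which makes adenosine from AMP, at 8.68 ± 0.22 by the highest of its 3 probe sets. Enpp3 was not called by any of its 5 probe sets (5.21 ± 0.31 by the highest). Adenosine kinase Adk read 12.99 ± 0.12 by a probe set of a type open to cross-hybridisation, and adenosine deaminase Ada 6.42 ± 0.33. In the list of adenosine uptake and breakdown 7 of 9 were above background, not Slc29a4 (5.67 ± 0.17) and Slc28a3 (4.89 ± 0.37), both nucleoside transporter genes. Slc29a4 was called without replicate 4.

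Other receptors of the same families were measured too. Over all genes 75.7% lay above background, and 57.1% with organ-restricted genes. All 5 remaining P2X genes were above background: P2rx5 was at 9.34 ± 0.21 and P2rx2 at 8.61 ± 0.12, and these 2 were also called with organ-restricted genes. P2rx1 read 6.22 ± 0.13 and P2rx3 5.72 ± 0.19 by their highest probe sets, and P2rx3 was not called without replicate 1, 2 or 4. Their other probe sets were not called, at −0.78 log2 units from background for P2rx1 and −0.22 and −1.24 for P2rx3. Of 7 other P2Y genes 4 were above background, and 2 with organ-restricted genes, both lower shares than over all genes. P2ry14, the receptor gene for UDP-glucose, read 9.24 ± 0.32 and P2ry6, the UDP receptor gene and genomic neighbour of P2ry2, 8.23 ± 0.47. Not called were P2ry1 (5.54 ± 0.32), P2ry4 (3.63 ± 0.20) and P2ry12 (4.78 ± 0.29); P2ry1 and P2ry12 encode ADP receptors. The adrenergic genes Adra1b and Adra2c read 6.27 ± 0.15 and 6.63 ± 0.22, above the chemosensory but not the organ-restricted background; 3 of the 4 Adra2c probe sets were not called.

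Downstream of the receptors, the Gq family genes Gnaq and Gna11 read 11.09 ± 0.14 and 11.77 ± 0.070, and 8 of 9 G protein alpha genes were above background, the exception being Gna15 (5.03 ± 0.13). All 6 phospholipase C beta and IP3 receptor genes were above it, with Plcb1 at 6.47 ± 0.43 and Plcb2 at 7.73 ± 0.29, neither of which passed the organ-restricted background, while Plcb3, at 11.22 ± 0.26, did. On the cAMP side 7 of 9 adenylyl cyclase genes were above background, against 75.7% of all genes, and 5 of 9 with organ-restricted genes, against 57.1%, such as Adcy2 at 8.44 ± 0.39, but not Adcy1 (5.47 ± 0.52) or Adcy8 (5.69 ± 0.18, called without replicate 4). All 6 protein kinase A genes were above both backgrounds, with the catalytic subunits Prkaca and Prkacb at 12.59 ± 0.13 and 11.79 ± 0.071. All 8 protein kinase C genes were above background (Prkca 10.25 ± 0.090, Prkcb 7.53 ± 0.37). So were the 6 receptor kinase and arrestin genes, which switch receptors off, with Grk3 at 12.62 ± 0.15 and Grk4 at 5.87 ± 0.37. That Grk3 probe set is of a type open to cross-hybridisation, and the other Grk3 probe sets read 10.78 and 10.75. The other Grk4 probe set, at 5.64, was not called. The 7 phosphodiesterase genes were above background too, with Pde3a at 6.34 ± 0.23 and Pde3b at 9.90 ± 0.18. With organ-restricted genes, 7 of 9 G protein alpha genes and 4 of 6 phospholipase C beta and IP3 receptor genes were called. So were 6 of 8 protein kinase C, 5 of 6 receptor kinase and arrestin and 5 of 7 phosphodiesterase genes. All counts in this paragraph stand against 75.7% of all genes, and 57.1% with organ-restricted genes. Slc17a9, Nt5e, P2rx3, P2rx5, P2ry6, P2ry14, Plcb3, Fcer1a, Mcpt4, Kit, Tpsb2, Cma1, Mcpt8 and Cxcr2 were chosen after their values were seen.

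**Figure D4:**
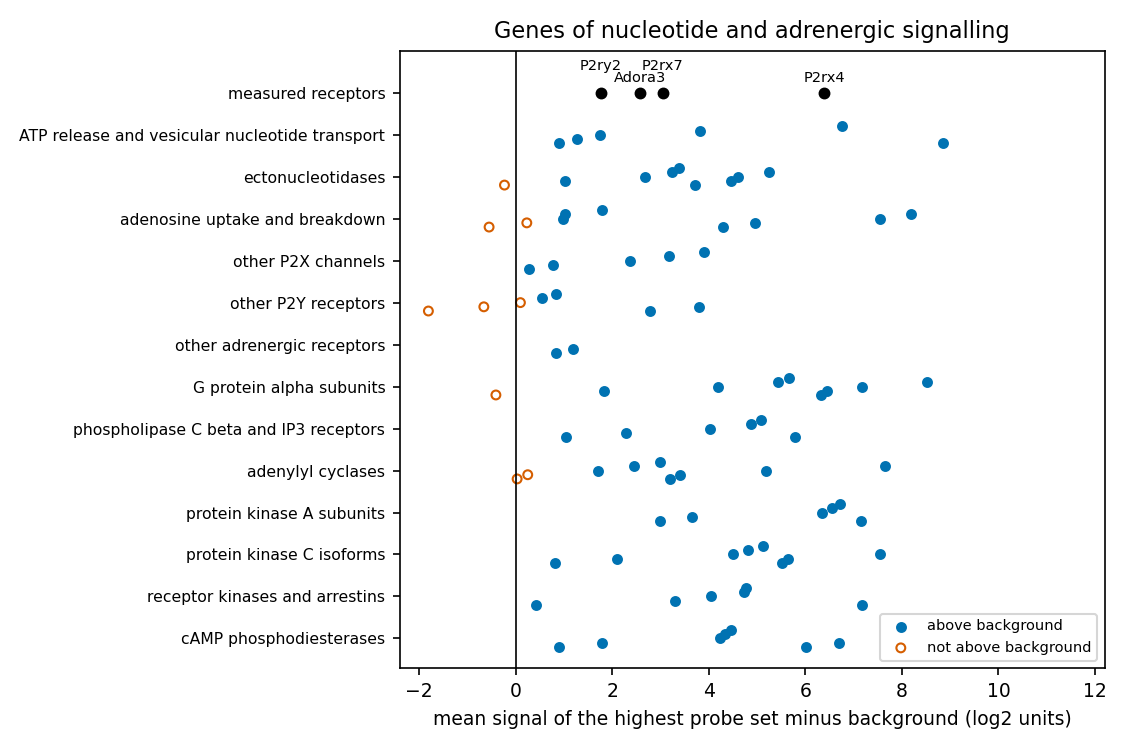
Mean signal of each gene's highest probe set minus background (horizontal axis, log2 units), for the 4 measured receptors (black) and for 89 genes of 13 lists (filled where above background, open where not). Of the 89 genes 80 are above background, and the 9 open points lie in 5 of the lists.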

How the data were processed

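RNA of 5 biological replicates was hybridised to one-colour Affymetrix arrays after amplification and biotin labelling with NuGEN Ovation kits, per the labels' protocols. The authors deposited 1 log2 value per probe set and array. The log base was inferred from the range of 2.46 to 15.24. Values were used as deposited, with the software and normalization not given in the sources used here. Of 45101 probe sets, 34958 had 1 gene symbol in the platform annotation and were analysed; 932 with several symbols and 9211 that it does not name were not.

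The difference from array background was tested one-sided in limma 3.58.1 (R 4.3.3, intercept model, eBayes with a trend). Spread was tested on 4 and 4.60 degrees of freedom. Both tests were run on simulated data. The alternatives were background percentiles of 90 and 99, organ-restricted genes, other normalizations, gene summaries, probe set types, no trend, a filter and each replicate left out.

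Members and gene lists were chosen with earlier results of these data known. Named were all members, the first 2 genes of each list, and up to 5 genes on the minority side of a list's call, with the 3 genes of nearest pattern for a receptor of range 1 or more. Promoter sequences are from RefSeq (GRCm38.p6); 4 of 4 measured members matched. Of the list names, 1 was updated through RefSeq synonyms.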

Additional observations from a re-analysis of the deposited data

Results flagged for a closer look

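The receptor probe sets and 1 probe set of each gene named by the stated rule, 64 in all, were screened for 1 outlying replicate. Genes chosen after their values were seen were not screened. In 3 of the 64, 1 replicate lay far from the others by Dixon's ratio of the gap to the range. The critical value is 0.71 for 5 samples, and chance flags about 1 in 20. In all 3 the outlying value was a low one in replicate 3, and none was a probe set of the receptors under study. Entpd2 (1418259_a_at), an ectonucleotidase gene, read 5.85 in replicate 3 and 6.55 to 6.69 in the others (ratio 0.829). P2ry12 (1431724_a_at) read 4.27 there and 4.84 to 4.94 in the others (ratio 0.846). Slc28a3 (1419571_at) read 4.25 there and 4.94 to 5.20 in the others (ratio 0.725). P2ry12 and Slc28a3 were not above background in the first place.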

How the results depend on the processing

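The receptor calls moved with the choice of background. With organ-restricted genes as background, 3 of 10 receptor probe sets, 2 of 4 receptor genes and 16635 probe sets in all were called; P2ry2 stood at −0.30, and the P2rx4 probe sets 1441772_at and 1446429_at at −0.086 and −0.54, log2 units from it. The organ-restricted level is set by the brightest few of 62 probe sets and differed by array (7.04 to 8.46), with replicates 1 and 4 highest. Combined with the highest probe set per gene, an alternative added after seeing the data, it left 1 receptor gene (P2rx4) and 52 pathway genes. Without probe sets whose suffix marks probes shared between transcripts, 4 of the 6 remaining receptor probe sets were called, and P2ry2, whose 1 probe set has such a suffix, had no value. The P2rx4 probe sets 1425525_a_at and 1452527_a_at, the ones called with either background, have it too; those left, 1441772_at and 1446429_at, stood at 1.94 and 1.49 and were not called with organ-restricted genes. Leaving out each replicate gave 8 receptor probe sets and 4 receptor genes every time, and 25032 to 25270 probe sets and 79 to 81 pathway genes above background. Background percentiles of 90 and 99, quantile normalization and no trend each gave 8 of 10 receptor probe sets. The filter on low values, which removed the 2 uncalled ones, gave 8 of 8. All of these gave 4 receptor genes, with 66 to 84 pathway genes. Median centring could not change these calls, because a constant per array cancels when the array's background is subtracted. Probe sets of any gene with large spread numbered 0 with all 5 arrays, 4 without replicate 1, 3 without replicate 3 and 1 without the shared-transcript types, and no receptor was among them; this test does not use the background. The counts of receptor probe sets could not be formed with 1 value per gene. No paired analysis was possible because there was 1 group. Arrays give no depth, and signal near background limits P2ry2, the uncalled probe sets of P2rx7 and Adora3, and P2rx3.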
